A study of Homo sapiens with 26 samples.

Results

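KCNH8, CCNC, FAM53A and ABCA13 are 4 genes whose ribosome footprint counts moved sharply with 1 method of ribosomal RNA (rRNA) removal and little or not at all with another. They were chosen for those counts, so their values are given as a description with no test. CDK8, MED12 and MED13, the proteins that work with the product of CCNC, were added as its partners and could be tested. The 7 genes were found by name in all 4 deposited count tables, where they are 7 of 19478 coding transcripts.

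Ribosome profiling sequences the short mRNA fragments that ribosomes shield from nuclease, so a count over a coding sequence reads out translation of that mRNA. Ribosomal RNA fragments share the size of footprints, and kits take them out. In NEBNext and Ribo-Zero Plus a nuclease cuts rRNA that is paired with DNA probes, Ribo-Zero Gold, RiboCop and riboPools capture it on beads, and FastSelect blocks its copying into cDNA. By its title, the series asks whether depletion by nuclease biases footprint libraries.

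The study made 26 libraries from 3 human cell lines, HEK293T and HEK293FT (both of embryonic kidney origin) and K562 (from a chronic myeloid leukaemia), all lysed with cycloheximide. The HEK293T table holds 2 libraries each of undepleted, Ribo-Zero Gold, RiboCop and NEBNext material from fragments of 15 to 35 nt. The K562 size table holds 1 NEBNext and 1 undepleted library at 20 to 34 nt and the same pair at 20 to 60 nt. Both libraries titled undepleted there also carry a label that names NEBNext, so directions given for that table hold as far as its titles do. At 20 to 34 nt, the K562 kit table holds 2 undepleted libraries and 2 each for FastSelect, riboPools, and riboPools eluted cold. It also holds 4 single Ribo-Zero Plus libraries: the kit alone, with oligos, with formaldehyde, and with both. The HEK293FT table holds 1 undepleted library and 1 depleted with custom oligos, at 15 to 35 nt. The labels do not say whether replicates came from separate cultures, so the spread between them may be technical.

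Library totals ran from 46858 to 5795774 counts. They lay between 120019 and 421521 in HEK293T, between 46858 and 441249 in the K562 size table, and between 1031889 and 5795774 in the K562 kit table apart from 3 shallow Ribo-Zero Plus libraries with 116742 to 184722 counts. In those shallow libraries 1 count is worth 5.41 to 8.57 CPM (a count scaled to a common library total). The erythroid genes HBG1, HBG2, GATA1 and KLF1 had counts in both K562 tables and at most 1 count in a HEK table, and NEFM had 579 and 677 counts in the HEK tables and 0 in both K562 tables, which matches the labelled lines.

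KCNH8 encodes a voltage-gated potassium channel of the ether-a-go-go family, known mainly from nervous tissue. CCNC encodes cyclin C, the regulatory subunit of the kinase CDK8; with MED12, which activates the kinase, and MED13, which tethers it, they form the kinase module of Mediator, the complex that links transcription factors to RNA polymerase II. ABCA13 is a very large lipid transporter of the ABCA family. FAM53A belongs to a small family of nuclear proteins with FAM53B and FAM53C.

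On GRCh38 (GENCODE release 29), KCNH8 (ENST00000328405.6) lies on the plus strand of chromosome 3, from 19148454 to 19535646, in 16 exons with a coding length of 3321 bases. CCNC (ENST00000520429.5) lies on the minus strand of chromosome 6, from 99542380 to 99568973, in 12 exons with 849 coding bases. FAM53A (ENST00000308132.10) lies on the minus strand of chromosome 4, from 1639881 to 1684261, in 5 exons with 1194 coding bases. ABCA13 (ENST00000435803.5) lies on the plus strand of chromosome 7, from 48171460 to 48647495, in 62 exons with 15174 coding bases. CDK8 (ENST00000381527.7, chromosome 13), MED12 (ENST00000374080.7, chromosome X) and MED13 (ENST00000397786.6, chromosome 17) have coding lengths of 1392, 6531 and 6522 bases. Of the 7 coding sequences, only that of CCNC is overlapped by another annotated gene: the antisense transcript AL137784.2 covers 32 of its coding bases. Strand handling in the counting is not given in the sources used here.

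Purine runs are stretches of A and G alone. The 60-base windows below are shown because few coding sequences hold a run as long as that of KCNH8; each is written 5′ to 3′ on the coding strand, with the longest purine run in capitals.
KCNH8: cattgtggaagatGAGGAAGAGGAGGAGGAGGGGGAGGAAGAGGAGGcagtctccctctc
ABCA13: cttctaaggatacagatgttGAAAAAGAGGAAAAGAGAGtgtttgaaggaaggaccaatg
CCNC: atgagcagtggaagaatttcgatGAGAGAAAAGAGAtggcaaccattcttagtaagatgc
FAM53A: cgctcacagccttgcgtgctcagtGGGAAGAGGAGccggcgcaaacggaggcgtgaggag

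The run of KCNH8 is 34 bases long, at chr3:19513027-19513060 in the coding part of exon 13 of 16 (coding positions 2137 to 2170). Only 184 of 18948 coding sequences (0.971%) hold a run as long, against a median of 12 bases. The longest run is 19 bases in ABCA13 (chr7:48524300-48524318, exon 54; 10.7% of coding sequences reach that length), 13 in CCNC (chr6:99545161-99545173, exon 11; 45.1%) and 11 in FAM53A (chr4:1655051-1655061, exon 4; 69.4%). Among the partners it is 11 bases in CDK8, 18 in MED12 and 12 in MED13. The purine run was looked at after the counts were seen. The deposited tables give 1 count per coding sequence, so whether the reads lie at these runs was not tested.

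**Figure D1:**
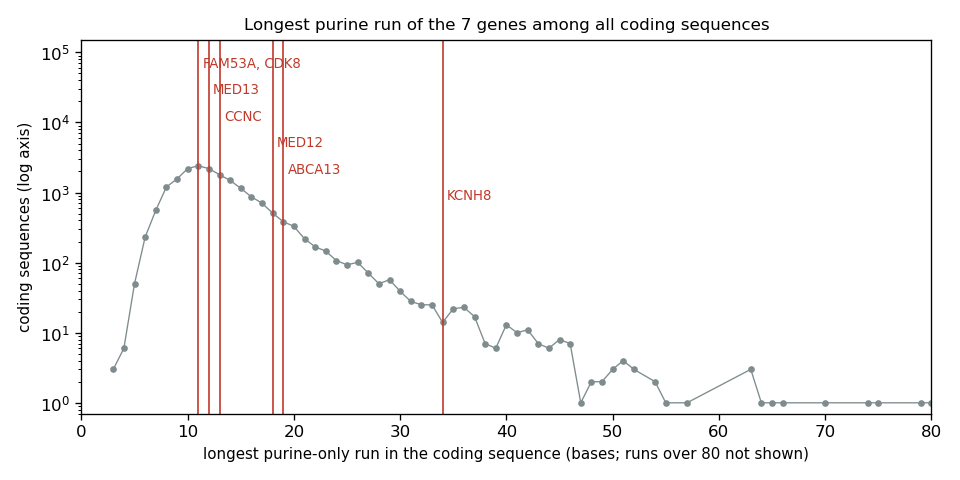
Longest purine-only run in the coding sequence (x axis, bases) against the number of coding sequences with that value (y axis, log scale); red lines mark the 7 genes. KCNH8, at 34 bases, lies far to the right of the median of 12, and the other 6 genes lie between 11 and 19.

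KCNH8 was at 0 counts in all 8 HEK293T libraries, NEBNext included, where 3 counts would be 7.117 to 25.0 CPM. In the K562 size table it had 713 counts (1616 CPM) with NEBNext at 20 to 34 nt against 0 undepleted, and 740 counts (3705 CPM) at 20 to 60 nt against 2 (42.68 CPM). Both NEBNext libraries of K562 were thus high and both undepleted ones at or under the floor of 3 counts. The ratio was at least 102 at the narrow size range and 86.8 at the wide one, where the exact 95% interval from 2 undepleted counts runs from 23.9 to 718. Intervals here and below cover counting error only, as PCR copies are not independent molecules.

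In the K562 kit table, the undepleted libraries held 32 and 45 KCNH8 counts (28.18 and 43.61 CPM). FastSelect gave 877 and 1121 counts (350 and 385 CPM), and riboPools 243 and 210 (106 and 71.52 CPM). With cold elution the same riboPools chemistry gave 95 and 63 counts (16.47 and 10.87 CPM). No kit's pair overlapped the undepleted pair or another kit's pair, and cold elution alone lay below undepleted. A cold elution pair below the undepleted pair was seen for 19.5% of 9167 genes with at least 10 undepleted counts. How many genes had a pair above it, or kit pairs apart from each other, was not counted. Against the undepleted mean, KCNH8 was 10.2-fold higher with FastSelect (exact 95% interval 8.27 to 13.2), 2.47-fold higher with riboPools (1.91 to 3.15) and 2.63-fold lower with cold elution (1.95 to 3.44).

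Ribo-Zero Plus with oligos, formaldehyde or both gave the highest KCNH8 levels of the series. The kit alone lay below them and below NEBNext in K562 at 20 to 60 nt. The kit alone had 3889 KCNH8 counts (2113 CPM), the library with oligos 2960 (16020 CPM), that with formaldehyde 1574 (13480 CPM) and that with both 2211 (13390 CPM). The ratios to undepleted were 58.9, 446, 376 and 373. The libraries with formaldehyde and with both cannot be ordered, since their counting intervals (12800 to 14200 and 12800 to 14000 CPM) overlap, and with 1 library per combination there is no replicate error. By counts, KCNH8 ranked 45th among 10603 detected genes with the kit alone, 1st among 6847 with oligos, and 2nd among 5905 and among 6583 with formaldehyde and with both. In the undepleted libraries it ranked at 5135 and 3932.

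In HEK293FT, KCNH8 had 10 counts (11.1 CPM) undepleted and 65 (11.31 CPM) after custom oligos, a ratio of 1.02 (exact 95% interval 0.52 to 2.22). From high to low the K562 kit groups therefore ran Ribo-Zero Plus, FastSelect, riboPools, undepleted, cold elution. HEK293FT lay at the level of cold elution, and HEK293T at 0.

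Of the other ether-a-go-go channels, most had hardly any counts. KCNH1, KCNH3, KCNH4, KCNH5, KCNH6 and KCNH7 had between 3 and 98 counts each over all libraries. KCNH2, the cardiac repolarisation channel hERG, was the relative with the most counts in K562. It had 128 and 129 counts undepleted (113 and 125 CPM) in the K562 kit table, 108 and 119 CPM with FastSelect, 122 and 124 CPM with riboPools and 120 and 117 CPM with cold elution. With Ribo-Zero Plus it had 110 CPM alone, 114 CPM with oligos, 34.3 CPM with formaldehyde (4 counts) and 188 CPM with both (31 counts). KCNH2 thus had more counts than KCNH8 in the undepleted, riboPools and cold elution libraries of that table, and fewer with FastSelect and Ribo-Zero Plus. In the K562 size table KCNH2 had 129 and 105 CPM with NEBNext against 94.6 and 64.0 CPM undepleted, the last from 3 counts.

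As a background for these rises, genes with at least 50 counts when depleted and at least 4-fold more CPM than undepleted were counted. They numbered 6 of 1687 (0.356%) for NEBNext in K562 at 20 to 34 nt and 4 of 774 (0.517%) at 20 to 60 nt, with KCNH8 and CCNC in both. For FastSelect KCNH8 was the 1 gene of 7979 (0.0125%). For Ribo-Zero Plus they were 7 of 5270 (0.133%) with the kit alone, 2 of 738 (0.271%) with oligos, 6 of 439 (1.37%) with formaldehyde and 8 of 674 (1.19%) with both, KCNH8 in each. These are the counts by which the genes were chosen, so nothing is read from them.

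**Figure D2:**
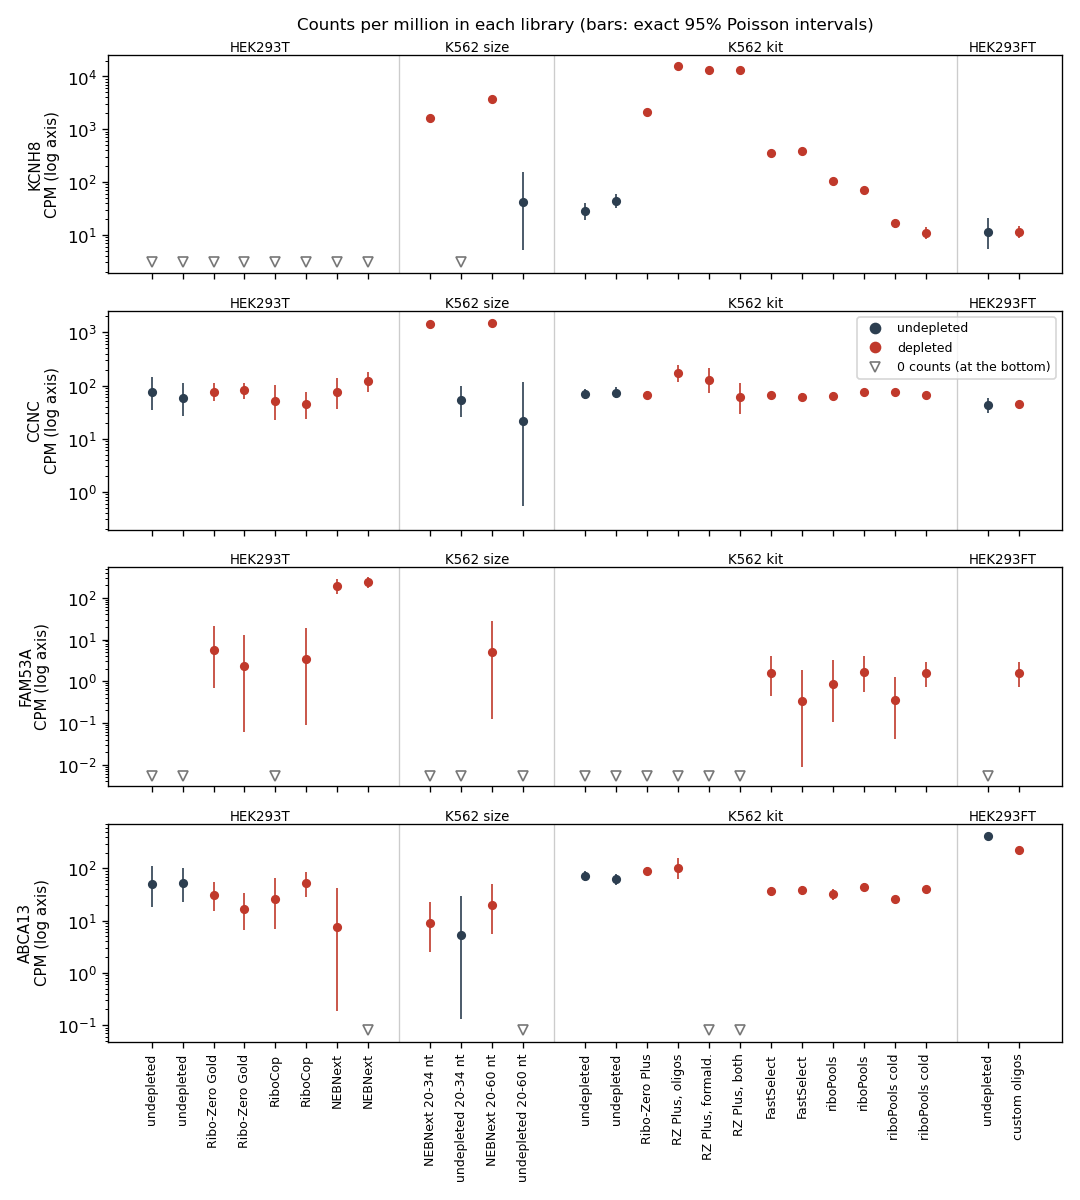
CPM (log axis) of KCNH8, CCNC, FAM53A and ABCA13 in each of the 26 libraries, grouped by table; points are single libraries, bars exact 95% Poisson intervals, and open triangles at the bottom libraries with 0 counts. KCNH8 falls stepwise from Ribo-Zero Plus to cold elution, CCNC stands out in the 2 NEBNext libraries of K562, and FAM53A in the 2 NEBNext libraries of HEK293T.

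CCNC, cyclin C, reached its highest levels in the NEBNext pair of K562. It had 638 counts (1446 CPM) at 20 to 34 nt against 10 (52.56 CPM) undepleted, and 300 (1502 CPM) at 20 to 60 nt against 1 (21.34 CPM). Both NEBNext libraries were high and near each other. The ratio was 27.5 at 20 to 34 nt (exact 95% interval 14.9 to 57.6) and 70.4 at 20 to 60 nt, where 1 undepleted count leaves an interval of 12.5 to 2790.

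With the same kit in HEK293T, CCNC had 10 and 24 counts (75.01 and 119.4 CPM) against 9 and 9 undepleted (74.99 and 58.65 CPM). The lower NEBNext library and the higher undepleted one were level, and the ratio of 1.45 has an interval of 0.848 to 2.91. Ribo-Zero Gold gave 76.84 and 80.66 CPM and RiboCop 51.22 and 44.75 CPM. In HEK293T, CCNC thus stayed between 44.75 and 119.4 CPM.

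In the K562 kit table the undepleted libraries had 69.58 and 73.65 CPM of CCNC. FastSelect (65.85 and 61.82 CPM), riboPools (64.57 and 74.25) and cold elution (74.04 and 66.43) had kit means of 0.891 to 0.981 times the undepleted mean. Ribo-Zero Plus gave 65.75 CPM alone, 173.2 CPM with oligos from 32 counts, 128.5 CPM with formaldehyde from 15 counts and 60.55 CPM with both from 10 counts. The ratio with oligos, 2.42, had an interval of 1.60 to 3.56. HEK293FT had 43.3 CPM undepleted and 44.02 CPM with custom oligos.

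The partners of cyclin C did not follow it in K562. MED12 had 52 counts (117.8 CPM) with NEBNext at 20 to 34 nt against 21 (110.4 CPM), and 17 (85.12 CPM) at 20 to 60 nt against 4 (85.36 CPM). MED13 had 45.33 and 40.06 CPM with NEBNext against 42.05 and 42.68 CPM undepleted. CDK8 had 6 and 1 counts with NEBNext (13.6 and 5.007 CPM) against 8 and 1 undepleted (42.05 and 21.34 CPM), so its CPM was lower at both sizes.

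For CDK8 the ratio of NEBNext to undepleted was 0.323 at 20 to 34 nt (exact 95% interval 0.0925 to 1.06). With 1 count on each side at 20 to 60 nt, no ratio of CDK8 is given there. Within each size range, the ratios lay between 0.939 and 1.08 for MED12 and MED13. The exact 95% intervals at 20 to 34 nt were 0.632 to 1.87 for MED12 and 0.455 to 2.83 for MED13. At 20 to 60 nt they were 0.325 to 4.07 and 0.187 to 9.07, so changes within these ranges cannot be told from none. MED12 was the partner with enough counts to test, and edgeR gave it 0.13 ± 0.39 (log2 fold change and SE, adjusted p 0.936). CDK8 and MED13 did not pass the filter on low counts in that table.

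Within a library, CCNC can be set against its partners with no scaling between libraries: its counts per kilobase of coding length over the mean of those of CDK8, MED12 and MED13. This ratio was 147 and 233 in the NEBNext libraries of K562. In the other 24 libraries it ranged from 2.16 to 16.0 with a median of 5.72. The highest of those 24 were the second NEBNext library of HEK293T, with 24 CCNC counts, and the Ribo-Zero Plus library with oligos, with 32. The undepleted partners of the K562 NEBNext libraries had ratios of 3.47 and 2.16, the last from 1 CCNC count. Against MED12 alone the K562 NEBNext ratios were 94.4 and 136, and those of the other libraries 1.92 to 9.89.

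**Figure D3:**
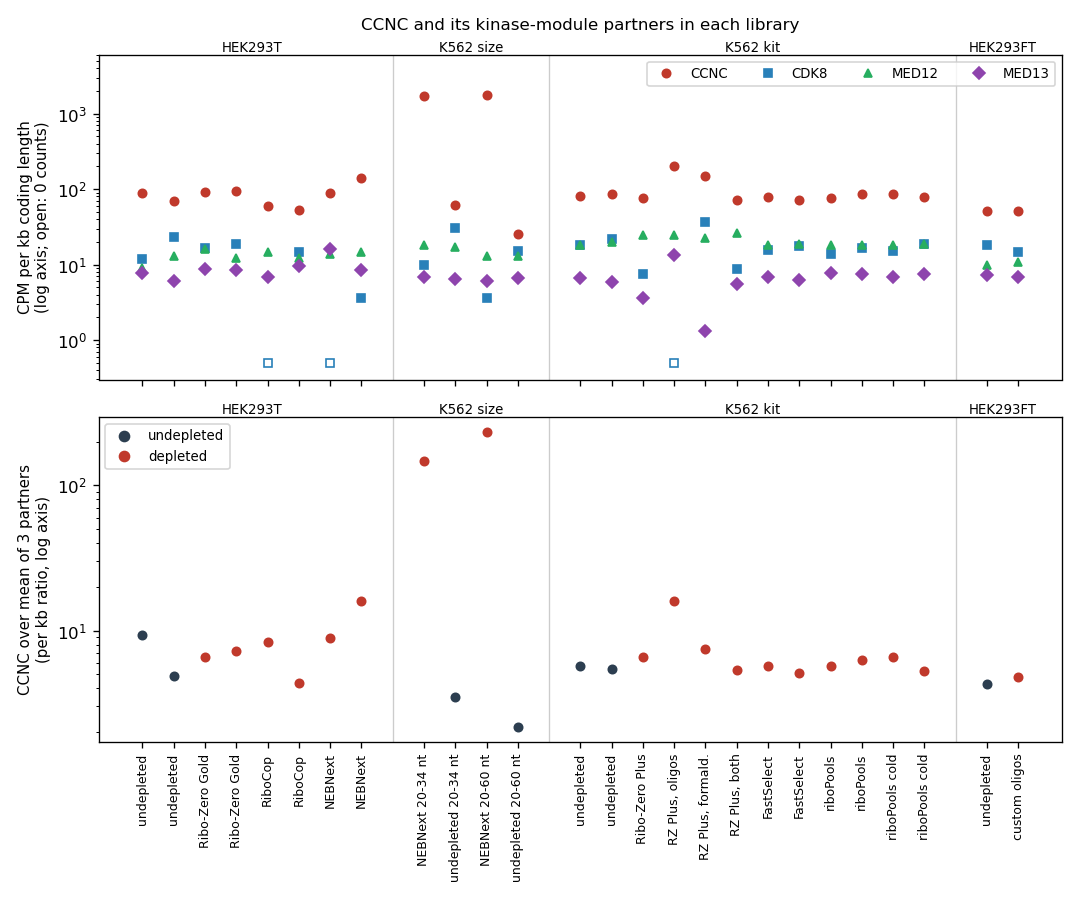
Upper panel: CPM per kilobase of coding length (log axis) of CCNC, CDK8, MED12 and MED13 in each library, with open symbols for 0 counts. Lower panel: CCNC per kilobase over the mean of its 3 partners (log axis); the 2 NEBNext libraries of K562 stand at 147 and 233, the other 24 between 2.16 and 16.0.

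In HEK293T, MED12 had 90.01 and 94.49 CPM with NEBNext against 58.32 and 84.71 CPM undepleted, and MED13 had 105.0 and 54.7 CPM against 49.99 and 39.1 CPM. The pairs did not overlap for either gene, but each value rests on 6 to 19 counts. How many of all genes had a NEBNext pair above the undepleted pair was not counted. A NEBNext pair below it was seen for 25.1% of 5079 genes with at least 10 undepleted counts. By edgeR's quasi-likelihood test, adjusted over all genes tested, the log2 fold changes were 0.36 ± 0.42 for MED12 (adjusted p 0.763) and 0.78 ± 0.52 for MED13 (adjusted p 0.521). CDK8 had 0 and 1 counts with NEBNext (0 and 4.973 CPM) against 2 and 5 undepleted (16.66 and 32.58 CPM) and did not pass the filter. Its ratio of 0.101 rests on 1 NEBNext count (exact 95% interval 0.00259 to 0.909). With no filter on low counts, edgeR gave it -2.86 ± 1.19 on the log2 scale (adjusted p 0.443). With Ribo-Zero Gold the edgeR log2 fold changes were 0.33 for MED12 and 0.34 for MED13 (adjusted p 0.976 for both), and with RiboCop 0.22 and 0.34 (adjusted p 0.998 for both).

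The K562 kit table, with its deeper libraries, gave the tightest values for the partners. MED12, the scaffold that activates the kinase, had 119.8 and 131.8 CPM undepleted and 118.5 to 123.6 CPM over the 6 FastSelect, riboPools and cold elution libraries. Its log2 fold changes were -0.04 ± 0.10, -0.08 ± 0.11 and -0.05 ± 0.10 (edgeR adjusted p 0.986, 0.965 and 0.962). MED13, which tethers the module, had 43.15 and 37.79 CPM undepleted and 41.21 to 49.74 CPM in those 6 libraries. Its log2 fold changes were 0.07, 0.27 and 0.19 (edgeR adjusted p 0.988, 0.894 and 0.884).

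CDK8, the kinase itself, had 25.54 and 30.04 CPM undepleted and 19.2 to 26.05 CPM in the same 6 libraries. Its edgeR log2 fold changes were -0.27 ± 0.23 with FastSelect, -0.37 ± 0.24 with riboPools and -0.25 ± 0.21 with cold elution (adjusted p 0.958, 0.879 and 0.884). All 3 lay below 0 and all 3 share the same undepleted libraries, and none passed the test.

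With Ribo-Zero Plus the partners differed from each other. CDK8 had 10.33 CPM with the kit alone (19 counts), 0 counts with oligos, 51.4 CPM with formaldehyde (6 counts) and 12.11 CPM with both (2 counts). As the mean of the 4 libraries, the change of CDK8 on the log2 scale was -1.53 ± 0.53 (edgeR adjusted p 0.0582), which missed the threshold of 0.05. Over the alternatives the adjusted p of edgeR or DESeq2 ranged from 0.0193 to 0.374. It passed without the library with oligos (0.0197) and without that with formaldehyde (0.0193, both edgeR).

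MED12 had 160.9, 162.4, 145.6 and 169.5 CPM in the 4 Ribo-Zero Plus libraries, all above both undepleted values. The share of all genes with this order was not counted. The test gave 0.26 ± 0.17 on the log2 scale (edgeR adjusted p 0.286). MED13 had 23.37 CPM with the kit alone, 86.62 with oligos, 8.566 with formaldehyde (1 count) and 36.33 with both, or -0.57 ± 0.35 on the log2 scale (edgeR adjusted p 0.249). These fold changes stand against a median over all genes of -0.43 in that comparison, which moved to -0.30 with DESeq2 size factors and to -0.33 with total count scaling.

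In HEK293FT the ratios of custom oligos to undepleted were 0.797 for CDK8 (exact 95% interval 0.507 to 1.31), 1.11 for MED12 (0.838 to 1.48) and 0.937 for MED13 (0.676 to 1.33). All 3 intervals include 1.

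The rest of Mediator was taken as a list of 32 genes without CCNC: the 3 partners, their copies CDK19, MED12L and MED13L, and 26 core subunits. With NEBNext in HEK293T, 0 of 15 tested passed edgeR's adjusted p of 0.05 (3.24% of all 4410 genes did, and 638 had an unadjusted p under 0.05). The list's median log2 fold change was 0.39 against 0.002 over all genes, with 11 of 15 above 0. With Ribo-Zero Gold and RiboCop it was also 0 of 15, against 0.068% and 0.0% of all genes, and the medians were 0.17 and 0.15. In K562 with NEBNext 0 of 14 passed (2.72% of 3715 genes), with a median of -0.09. The sign of that median turned in some alternatives. The median was 0.47 without the undepleted library of 20 to 34 nt, in a fit that also left out the size term. It was 0.22 with DESeq2 and 0.04 with no filter on low counts. The Ribo-Zero Gold median fell to 0.01 without the first undepleted library and to -0.02 without the first Ribo-Zero Gold library.

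With FastSelect, riboPools and cold elution 0 of 31 Mediator genes passed in edgeR, against 0.0205%, 0.082% and 0.225% of 9761 genes. The medians of the list were 0.01, 0.02 and 0.01. MED13L, the copy of MED13 with the most counts, had 29.9 and 35.9 CPM undepleted and 30.9 to 38.7 CPM in those 6 libraries.

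With Ribo-Zero Plus 2 of 31 passed, MED4 and MED30, both lower, where 14.9% of 9628 genes were called by edgeR. MED4, a subunit of the middle module, had 25.5 and 32.0 CPM undepleted, 16.3 CPM with the kit alone, 2 counts with oligos and 0 counts in both formaldehyde libraries. MED30 had 13.2 and 20.4 CPM undepleted, 15.8 CPM with the kit alone and 0 counts in the 3 shallow libraries. Neither call held in edgeR when the fit was limited to the undepleted and Ribo-Zero Plus libraries, where 0 of 26 passed; in that fit 0 of all 7322 genes tested did, so the loss is not particular to these genes. The list's median was -0.53 against the -0.43 of all genes.

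FAM53A counts were seen with NEBNext in HEK293T and barely elsewhere. It had 25 and 47 counts (187.5 and 233.7 CPM) in the NEBNext libraries and 0 in both undepleted ones. Ribo-Zero Gold gave 2 and 1 counts, and RiboCop 0 and 1. The NEBNext pair was at least 19.2-fold higher than the undepleted pair, with the floor of 3 counts taken over both undepleted libraries; the bound fell to 8.43 when it rested on the first of them alone. Of genes with at least 50 counts with NEBNext in HEK293T, 3 of 1347 (0.223%) rose at least 4-fold, FAM53A among them by choice.

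In K562, FAM53A had 0 and 1 counts with NEBNext and 0 in both undepleted libraries of that table. In the kit table it had 0 counts in both undepleted libraries and in all 4 Ribo-Zero Plus libraries. FastSelect gave 4 and 1 counts, riboPools 2 and 5, and cold elution 2 and 9, from libraries of 2291924 to 5795774 counts. HEK293FT had 0 counts undepleted and 9 (1.57 CPM) with custom oligos. Over all 26 libraries FAM53A had 109 counts, 72 of them from the NEBNext pair of HEK293T, and 13 libraries were at 0.

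Its relatives FAM53B and FAM53C did not rise with it. FAM53C had 22.5 and 19.9 CPM with NEBNext in HEK293T (3 and 4 counts) against 58.3 and 39.1 CPM undepleted. FAM53B had 0 and 3 counts with NEBNext against 2 and 2 undepleted.

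ABCA13 was proposed as a gene that falls after every depletion, and the libraries do not show that. In HEK293T it had 6 and 8 counts undepleted (49.99 and 52.13 CPM). NEBNext gave 1 and 0 counts (7.501 and 0 CPM), and Ribo-Zero Gold 11 and 7 (31.31 and 16.61 CPM). RiboCop gave 4 and 15 counts (25.61 and 51.63 CPM).

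The NEBNext and Ribo-Zero Gold pairs lay below the undepleted pair, as did those of 25.1% and 21.7% of 5079 genes with at least 10 undepleted counts. The RiboCop pair overlapped it. ABCA13 was 13.6-fold lower with NEBNext on a single count (exact 95% interval 2.60 to 724), 2.13-fold lower with Ribo-Zero Gold (1.01 to 4.68) and 1.32-fold lower with RiboCop (0.558 to 2.53).

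In the K562 size table ABCA13 had 4 counts in each NEBNext library (9.065 and 20.03 CPM) and 1 and 0 undepleted. The NEBNext libraries were thus not lower, and the depth of the undepleted ones cannot show a fall. In the K562 kit table the undepleted libraries had 83 and 64 counts (73.1 and 62.02 CPM). FastSelect gave 36.32 and 38.12 CPM, riboPools 31.85 and 44.96, and cold elution 25.49 and 40.55.

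All 6 of these libraries lay below both undepleted ones, which held for 7.3% of 9167 genes. Taken kit by kit, 17.8%, 17.7% and 19.5% of genes did so. The reductions were 1.82-fold with FastSelect (exact 95% interval 1.46 to 2.26), 1.76-fold with riboPools (1.39 to 2.15) and 2.05-fold with cold elution (1.69 to 2.49), and they share the undepleted libraries. The pairs of the 3 kits overlapped each other.

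Ribo-Zero Plus split into 2 pairs. ABCA13 was higher than undepleted with the kit alone (168 counts, 91.29 CPM, ratio 1.35, interval 1.07 to 1.69) and with oligos (19 counts, 102.9 CPM, ratio 1.52, interval 0.888 to 2.45). It had 0 counts in both formaldehyde libraries, which makes it at least 2.63-fold lower with formaldehyde and at least 3.72-fold lower with both, at 3 counts per library. Those libraries are also the shallowest of the table, and the part of depth in this was not tested.

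HEK293FT held the most ABCA13 of the series: 383 counts (425.2 CPM) undepleted and 1281 (222.9 CPM) with custom oligos, 1.91-fold lower (exact 95% interval 1.70 to 2.14). A fall of at least 1.5-fold was seen for 17 of 5225 genes (0.325%) that averaged 100 counts or more, ABCA13 among them by choice. With 1 library per group there is no replicate error.

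**Figure D4:**
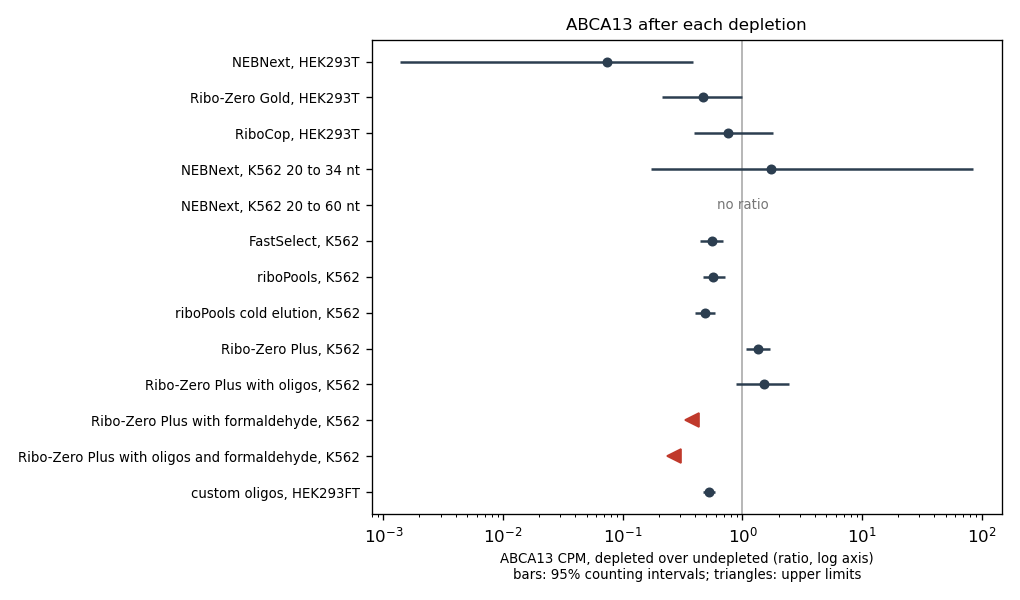
ABCA13 CPM of depleted over undepleted libraries (x axis, ratio, log scale) for each comparison; bars are exact 95% counting intervals, triangles upper limits from 0 counts, and the grey line marks equality. FastSelect, riboPools, cold elution and custom oligos lie between 0.489 and 0.568, while Ribo-Zero Plus alone and with oligos lie above 1.

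Among the other ABCA transporters, ABCA7 and ABCA3 had the most counts, and in the K562 kit table neither lay below undepleted in the way of ABCA13. ABCA7 had 44.9 and 41.7 CPM undepleted and 50.1 to 57.5 CPM over the FastSelect, riboPools and cold elution libraries. ABCA3 had 14.1 and 16.5 CPM undepleted and 16.0 to 19.8 CPM. In HEK293FT, ABCA3 had 9 counts (9.99 CPM) undepleted and 77 (13.4 CPM) with custom oligos, while ABCA7 had 10 (11.1 CPM) and 36 (6.26 CPM).

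The genes most like each chosen gene were found by Pearson's r of log2 CPM less the mean of the undepleted libraries of the same table, over the 26 libraries and 9398 genes with at least 200 counts in all. KCNH8 was most like DSP (0.894), RPL18 (0.832) and SMARCD1 (0.825). CCNC was most like AP000781.2 (0.939), RGPD1 (0.925) and HIST1H4E (0.902). FAM53A was most like RPS13 (0.877), PLOD2 (0.816) and RPS27A (0.809), and ABCA13 like MAP2K5 (0.906), CYTH1 (0.894) and FCHSD1 (0.893).

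These correlations describe libraries that share depth and kit and are not independent. DSP had 0 to 6 counts in every K562 library, so its likeness to KCNH8 rests on few reads. PLOD2 had 0 to 2 counts in each of those libraries. Undepleted in the K562 size table, AP000781.2 had 1 and 0 counts and RGPD1 0 in both. MAP2K5, CYTH1 and FCHSD1 were, like ABCA13, at 0 counts in both formaldehyde libraries. Pearson's r does not give the size of a change: RPL18 had 2120 CPM with Ribo-Zero Plus and oligos against 1480 and 1470 CPM undepleted. RPS13, a ribosomal protein gene, had 1630 and 2020 CPM with NEBNext in HEK293T against 892 and 977 CPM undepleted. Among the chosen genes themselves, r was 0.548 for KCNH8 and CCNC, -0.198 for KCNH8 and FAM53A, 0.0714 for CCNC and FAM53A and 0.397 for CCNC and ABCA13.

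Likeness to rRNA was read from the reference transcripts of 5S, 5.8S and both mitochondrial rRNAs; 18S and 28S rRNA were not used here. The longest exact run shared with these on either strand was 14 bases in KCNH8 (2.61% of coding sequences have as much), 12 in CCNC (31.0%), 11 in FAM53A (68.6%) and 13 in ABCA13 (9.85%). No 15-base word of any of the 4 occurred in them. The longest runs that any pair of the 4 genes shares were 9 to 14 bases, by strand. GC content was 45.6% in KCNH8, 38.2% in CCNC, 67.0% in FAM53A and 41.8% in ABCA13, against a median of 52.9%.

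The other genes with a purine run at least as long as that of KCNH8 were looked at as a list. Of 183 other genes with a run of at least 34 bases, 86 had 100 counts or more in the libraries of the Ribo-Zero Plus comparison (kit alone), and 45 of these were higher than undepleted. Their median log2 ratio was 0.013, against -0.0020 over all 5492 genes with that many counts, and the highest was 0.57. Of those 5492 genes, 49.7% were higher. With FastSelect the median was -0.0082 over 98 genes, 47 of them higher (against 50.9% of all genes), and the highest was 0.41. With NEBNext in K562 at 20 to 34 nt it was -0.06 over 19 genes, 8 of them higher (against 49.5% of all genes). In HEK293T fewer of the list were higher with 2 kits: 6 of 23 with NEBNext (median -0.20, against 50.5% of all genes higher) and 15 of 40 with Ribo-Zero Gold (median -0.06, against 51.3%). RiboCop lay nearer to all genes, with 13 of 30 higher (median -0.04, against 48.7%).

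With oligos, formaldehyde or both added to Ribo-Zero Plus, 28 of 62, 26 of 62 and 26 of 61 genes of the list were higher. Of all genes, 44.7%, 43.3% and 42.8% were higher, so the list lay near that share. The medians of the list were -0.10, -0.14 and -0.18, against -0.08, -0.15 and -0.14 over all genes. The highest log2 ratios in the list were 2.04, 2.19 and 2.24, and the highest over all genes were not taken for comparison.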

How the data were processed

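The members and gene lists were chosen with earlier results of these data known. Per the file headers, the deposited tables hold whole-number counts of reads on coding sequences, with 1 row for each transcript. Deposited RPM tables of these rows, scaled by the authors to each column total, were not used. Per the submitters' processing notes, CASAVA 1.8 and STAR were used with GRCh38 (hg38); filters, duplicate handling and counting are not given in the sources used here. CPM was computed from the counts and library totals, with exact 95% Poisson intervals for a library and exact binomial intervals for a ratio of summed counts. Where a group was at 0, a floor of 3 counts over the group stood in, and no ratio was given within the floor.

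Partners and the Mediator list were tested with edgeR 4.0.16 (R 4.3.3): TMM, filterByExpr (minimum count 10), quasi-likelihood test, Benjamini-Hochberg over all genes tested, threshold 0.05. All 8 HEK293T libraries entered 1 fit, the K562 size table was fitted with size as an additive term, and the 8 replicated kit libraries entered 1 fit. Ribo-Zero Plus was fitted with all 12 kit libraries and additive terms for oligos and formaldehyde. DESeq2 1.42.0, other scalings, no filter, a replicate block and leaving out each library were the alternatives. For the K562 size table, the fits that left out a library also left out the size term. The script was tested on simulated data. Named genes are the 7 members, listed genes that passed a test or had the most counts, and the 3 most alike.

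The RiboCop replicates differed by no more than sampling noise (chi-square per degree of freedom 1.027, p 0.101, chi-square test over 4378 genes), but have different totals and were kept as 2. Of the deposited transcripts, 97.51% had the same identifier and version in GENCODE release 29, and 97.28% could be given coding bases.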

Additional observations from a re-analysis of the deposited data

Results flagged for a closer look

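The measured CPM of ABCA13 with NEBNext lay on opposite sides of undepleted in the 2 cell lines, though no direction is established in K562. NEBNext minus undepleted was -47.3 CPM in HEK293T, where both NEBNext libraries lay below both undepleted ones. In K562 it was 11.9 CPM, where both NEBNext libraries lay above both undepleted ones. The difference was not tested. It rests on 1 NEBNext count in HEK293T and on 1 undepleted count in K562, where the ratio at 20 to 34 nt was 1.72 (exact 95% interval 0.171 to 84.9) and no ratio is given at 20 to 60 nt, and the line and its experiment cannot be told apart.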

How the results depend on the processing

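The count of Mediator genes called with Ribo-Zero Plus, 2 in edgeR, depended on the libraries: it was 0 with only those of that kit and the undepleted ones in the fit, 0 without either undepleted library, and 9 to 11 without 1 Ribo-Zero Plus library, so leave-one-out values ran from 0 to 11. These counts went with the number called over all genes: 0 of 7322 in the first fit, 160 and 175 without an undepleted library, and 2939 to 3575 without a Ribo-Zero Plus library. Such a fit assumes that a lone library varies like the other groups. For the other 7 comparisons the count was 0 in every alternative that was run. Deviations of libraries with the same replicate number correlated little (r -0.0442 to 0.0643), which cannot show that they were unpaired. Replicates differed by little more than counting noise (chi-square per degree of freedom 1.027 to 1.204), so a pairing would hardly show. With the replicate block 0 Mediator genes were called in each of the 6 comparisons where it could be fitted. For the K562 size table, where the number is the size range, size is already a term. CCNC with Ribo-Zero Gold in HEK293T was 1.24 times undepleted under TMM scaling, against 1.18 by totals. Leaving out 1 library moved some ratios: KCNH8 with FastSelect lay between 8.43 and 13.0, CCNC between 1.05 and 1.34 with Ribo-Zero Gold and between 0.64 and 0.818 with RiboCop. The FAM53A bound lay between 8.43 and 21.3, and the ratio of ABCA13 between 0.0719 and 0.292 with NEBNext in HEK293T and between 0.509 and 0.6 with FastSelect. The other 71 scaled and 77 leave-one-out ratios moved by less than the replicate spread or counting interval. Where 1 of 2 depleted libraries with counts was left out, this was fixed in advance. The library that remains always lies within that spread of the mean. Such ratios could still move far: ABCA13 ran from 0.502 to 1.01 with RiboCop and from 0.377 to 0.6 with cold elution. Of the tests of CDK8, MED12 and MED13, 2 changed side, both for CDK8 with Ribo-Zero Plus. In the HEK293T libraries 3 counts are 7.117 to 25.0 CPM, which limits what a count of 0 can show.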
